A study of Mus musculus with 18 samples.

Results

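The 10 genes of MHC class I antigen processing measured in adult mouse kidney were H2-K1, H2-D1, B2m, Tap1, Tap2, Tapbp, Psmb8, Psmb9, Psmb10 and Nlrc5. They were chosen by gene symbol and are 10 of the 55385 genes measured. PolyA RNA of whole kidney from 18 mice was sequenced, in 3 genotype groups of 6 animals, each with 3 males and 3 females. In Dp16 2xIFNRs mice the Dp16 duplication is kept while the interferon receptor genes within it are reduced to normal copy number. Dp16 is a trisomy 21 model in which a segment of chromosome 16, related to much of human chromosome 21, is present in an additional copy. Wild-type mice were C57BL/6J, a strain name that the labels give for this group alone. Animals were 17.1 to 18.0 weeks old and untreated. The labels name no litters, so p-values measure the spread between these animals. The meaning of the last number in each sample description is not given. There are 12 such numbers, and 5 are shared by 2 or more animals. None of the 10 genes lies on chromosome 16.

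MHC class I molecules show short peptides from a cell's own proteins to CD8 T cells. The proteasome cuts the proteins, and interferon can exchange its constitutive catalytic subunits for the immunoproteasome subunits encoded by Psmb8, Psmb9 and Psmb10. Tap1 and Tap2 form the pump that moves peptides into the endoplasmic reticulum, and Tapbp encodes tapasin, which holds empty class I molecules at that pump. H2-K1 and H2-D1 encode the classical heavy chains, B2m encodes the light chain beta-2 microglobulin that pairs with them, and Nlrc5 encodes the transactivator of class I genes. In kidney, as elsewhere, leukocytes and endothelium are rich in class I, and tubule cells make it at lower levels.

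Class I promoters are known for shared elements in a fixed order: an NF-kappaB site, an interferon response element bound by IRF factors, and an SXY module through which Nlrc5 acts. Stretches of 4 promoters are shown because they carry these elements in the light chain and both heavy chains, the genes that differed most clearly between Dp16 and wild-type kidneys, and in part in Tap1. The sequences are from RefSeq, build GRCm38.p6, and lie upstream of the RefSeq start site, at chr17:34000349-34000468 on the minus strand for H2-K1, chr17:35262913-35263032 for H2-D1, chr2:122147540-122147648 for B2m and chr17:34187460-34187555 for Tap1, all 3 on the plus strand. Capitals mark matches to the NF-kappaB consensus, to the IRF half-site AANNGAAA, and to TGACG followed after 20 bases by ATTGG, a spaced pair that resembles the X2 and Y boxes of the SXY module. In Tap1 the capitals mark TGACG alone.
H2-K1: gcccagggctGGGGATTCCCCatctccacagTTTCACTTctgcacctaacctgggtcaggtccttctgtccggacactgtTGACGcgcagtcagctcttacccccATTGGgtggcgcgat
H2-D1: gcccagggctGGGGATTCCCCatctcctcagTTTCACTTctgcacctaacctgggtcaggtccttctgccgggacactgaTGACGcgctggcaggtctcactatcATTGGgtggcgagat
B2m: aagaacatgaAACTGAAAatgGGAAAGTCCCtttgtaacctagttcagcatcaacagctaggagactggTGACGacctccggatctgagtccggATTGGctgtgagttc
Tap1: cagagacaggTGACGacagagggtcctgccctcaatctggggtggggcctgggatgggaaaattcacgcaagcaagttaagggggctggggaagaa

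The H2-K1 and H2-D1 stretches were identical at 108 of 120 bases. In both, the NF-kappaB match came first, the IRF half-site next and the spaced pair nearest the start. In B2m the IRF half-site came before the NF-kappaB match. RefSeq gives H2-K1 2 start sites, and the upstream one is used here. Windows of 300 bases, 250 before and 50 after a start, were found for 8 of the 10 genes and not for Tap2 and Nlrc5. Both strands were searched, and the NF-kappaB matches of H2-K1 and H2-D1 overlap on the 2 strands. The spaced pair was in 31 of 32851 mouse promoter windows (0.0944%), those of 27 genes, and with the spacing allowed to differ by up to 2 bases it was in 0.268%. The IRF half-site was in 23.9% of windows, the NF-kappaB consensus in 8.46% and TGACG in 20.8%. The longer GAAANNGAAA core of the interferon response element was in 3.44% of windows and, among the 8 genes, in B2m alone, where it overlaps the half-site. TGACG was also found in Psmb9, whose window shares 275 bases with that of Tap1, because the 2 genes start 226 bases apart on opposite strands. No match of these kinds was found in the windows of Tapbp, Psmb8 and Psmb10.

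**Figure D1:**
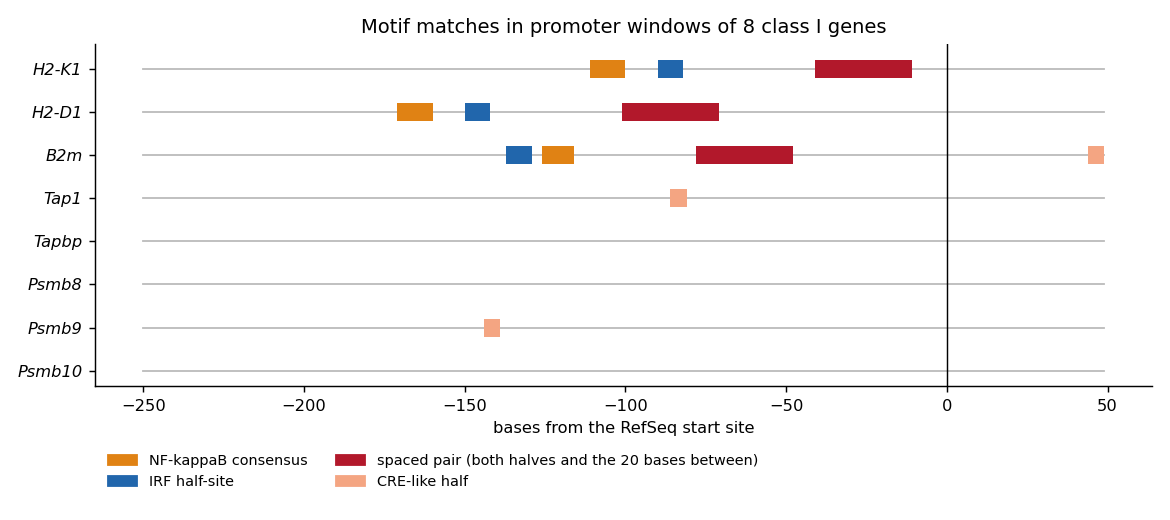
Positions of motif matches in the RefSeq promoter windows, 1 line per gene, with the distance from the start site in bases on the x axis and coloured bars for the motif types (TGACG in the lightest). H2-K1, H2-D1 and B2m hold the NF-kappaB match, the IRF half-site and the spaced pair, with a further TGACG after the start in B2m, and Tap1 and Psmb9 hold TGACG alone.

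Of the 10 genes, 6 lie close together on chromosome 17 (GRCm38, GENCODE M21). These are Tapbp at 33915899 to 33929292, H2-K1 at 33996017 to 34000347, Psmb9 at 34181987 to 34187764, Tap1 at 34187553 to 34197225, Psmb8 at 34197721 to 34201454 and Tap2 at 34203527 to 34216321. H2-D1 lies further along the same chromosome at 35262730 to 35267499. B2m lies on chromosome 2 at 122147686 to 122153083, and Nlrc5 and Psmb10 lie on chromosome 8 at 94434356 to 94527272 and 105935735 to 105938444.

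Per length of transcript, in RPKM over all 18 kidneys, the light chain was highest, and the transactivator was lowest. B2m had 572 ± 132 RPKM, H2-K1 176 ± 31.8 and H2-D1 151 ± 23.4 (SD, n = 18). Ranges of the heavy chains overlapped, from 126 to 256 RPKM for H2-K1 and from 112 to 202 RPKM for H2-D1. Tapbp followed with 45.7 ± 4.80 RPKM, with no kidney as low as the highest value of the genes after it. Psmb10, Psmb8 and Tap2 had 12.48 ± 2.42, 10.8 ± 2.40 and 8.95 ± 1.70 RPKM, with overlapping ranges. Tap1 and Psmb9 had 5.80 ± 1.14 and 5.46 ± 1.25 RPKM, closer to each other than the spread of either. Nlrc5 had 0.313 ± 0.0918 RPKM and ranged from 0.192 to 0.482.

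Library totals were 42157790 to 57814587 gene counts, and 17575 genes passed a filter on low counts, all 10 pathway genes among them. Below, CPM are library-size-scaled counts after TMM normalisation, folds are log2 differences from 1 edgeR fit of all 18 kidneys with genotype and sex, and a gene is called when its p adjusted by Benjamini-Hochberg over all 17575 genes is under 0.05. The kidney label was borne out by 6 proximal tubule markers, whose summed level was 11124 to 17668 CPM in every library. Wild-type replicate 5, a female, stood apart. It was the highest wild-type kidney for all 10 pathway genes, its 3 leukocyte markers (Ptprc, Coro1a, Laptm5) summed to 55.2 CPM against 37.3 to 46.2 CPM in the other wild-type kidneys, and its 3 adrenal markers (Star, Cyp11a1, Cyp11b1) summed to 43.7 CPM against at most 4.47 CPM in the other 17 kidneys. Dp16 replicate 3, also a female, was the highest Dp16 kidney for 7 of the 10 genes. Genotype calls that rest on these 2 kidneys are given with and without them. Both stood out on these same levels. Leaving out the highest wild-type kidney raises the folds against wild-type by itself, so calls gained that way are no separate support.

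The class I chains were higher in Dp16 than in wild-type kidneys. H2-K1, H2-D1 and B2m rose by 1.24-, 1.27- and 1.33-fold and were the 3 genes called among the 10, where 3.17% of all tested genes were called higher and 1.06% lower. With no sex term in the fit none of the 3 was called, with log2 folds of 0.31, 0.34 and 0.42 and adjusted p-values of 0.177, 0.0617 and 0.136. All 10 genes had a fold above 0, and 8 had an unadjusted p under 0.05. Their median log2 fold was 0.34, against -0.01 over all tested genes, of which 47.7% lay above 0. For Dp16 2xIFNRs against wild-type all 10 folds were likewise above 0, with a median of 0.24 against 0.01 over all tested genes. None of the 10 was called there by edgeR, where 3.17% of all tested genes were called higher and 1.61% lower; 7 had an unadjusted p under 0.05, and DESeq2 and limma-trend each called 1. Both comparisons use the same 6 wild-type kidneys.

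B2m, the light chain, had 409.7, 499 and 555 CPM as lowest, median and highest value in Dp16 2xIFNRs kidneys, 442, 519 and 717 CPM in Dp16 kidneys, and 351, 400.2 and 506 CPM in wild-type kidneys. In each of the mutant groups 3 of 6 kidneys stood above the highest wild-type kidney, and 4 of 6 wild-type kidneys stood below the lowest of either mutant group. The log2 fold was 0.41 ± 0.082 (SE) in Dp16 against wild-type, with a 95% interval of 0.24 to 0.58 and an adjusted p of 0.00614. In Dp16 2xIFNRs against wild-type it was 0.24, with an adjusted p of 0.102.

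H2-D1, the heavy chain of D molecules, had 321, 342 and 397 CPM in Dp16 2xIFNRs kidneys, 341, 367 and 438 CPM in Dp16 kidneys and 252, 294 and 346 CPM in wild-type kidneys, in the same order of lowest, median and highest. Of the Dp16 kidneys, 5 of 6 were above every wild-type kidney, the clearest separation among the chains. Its log2 fold was 0.34 ± 0.079 in Dp16 against wild-type (95% interval 0.18 to 0.51, adjusted p 0.0168) and 0.25 in Dp16 2xIFNRs against wild-type (adjusted p 0.0776). Of the 150-base stretches of its longest protein-coding transcript, 1.79% are shared with H2-Q1.

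H2-K1, the heavy chain of K molecules, had lowest, median and highest values of 264, 289 and 333 CPM in Dp16 2xIFNRs, 275, 311 and 408 CPM in Dp16 and 225, 248 and 326 CPM in wild-type kidneys. Replicate 3 alone among the Dp16 kidneys exceeded the highest wild-type kidney, while 5 of 6 wild-type kidneys lay below the lowest Dp16 kidney. The log2 fold was 0.31 ± 0.084 in Dp16 against wild-type (95% interval 0.13 to 0.48, adjusted p 0.0412) and 0.20 in Dp16 2xIFNRs against wild-type (adjusted p 0.192). This call was the least stable of the 3: it held in 8 of the 18 fits that left out 1 library, and the adjusted p reached 0.117.

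Leaving out Dp16 replicate 3 left B2m alone called in Dp16 against wild-type, with a log2 fold of 0.36 and an adjusted p of 0.0222. Without that kidney H2-K1 had a fold of 0.24 (adjusted p 0.117) and H2-D1 a fold of 0.29 (adjusted p 0.0559). Leaving out wild-type replicate 4 also left B2m alone, with an adjusted p of 0.0505 for H2-D1 and 0.102 for H2-K1. Without wild-type replicate 5, 6 of the 10 genes were called in Dp16 (H2-K1, H2-D1, B2m, Tap1, Psmb8 and Nlrc5) and 3 in Dp16 2xIFNRs (H2-D1, Tap1 and Nlrc5). With wild-type replicate 5 and Dp16 replicate 3 both left out, an alternative chosen after seeing the data, 5 and 3 genes were called.

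**Figure D2:**
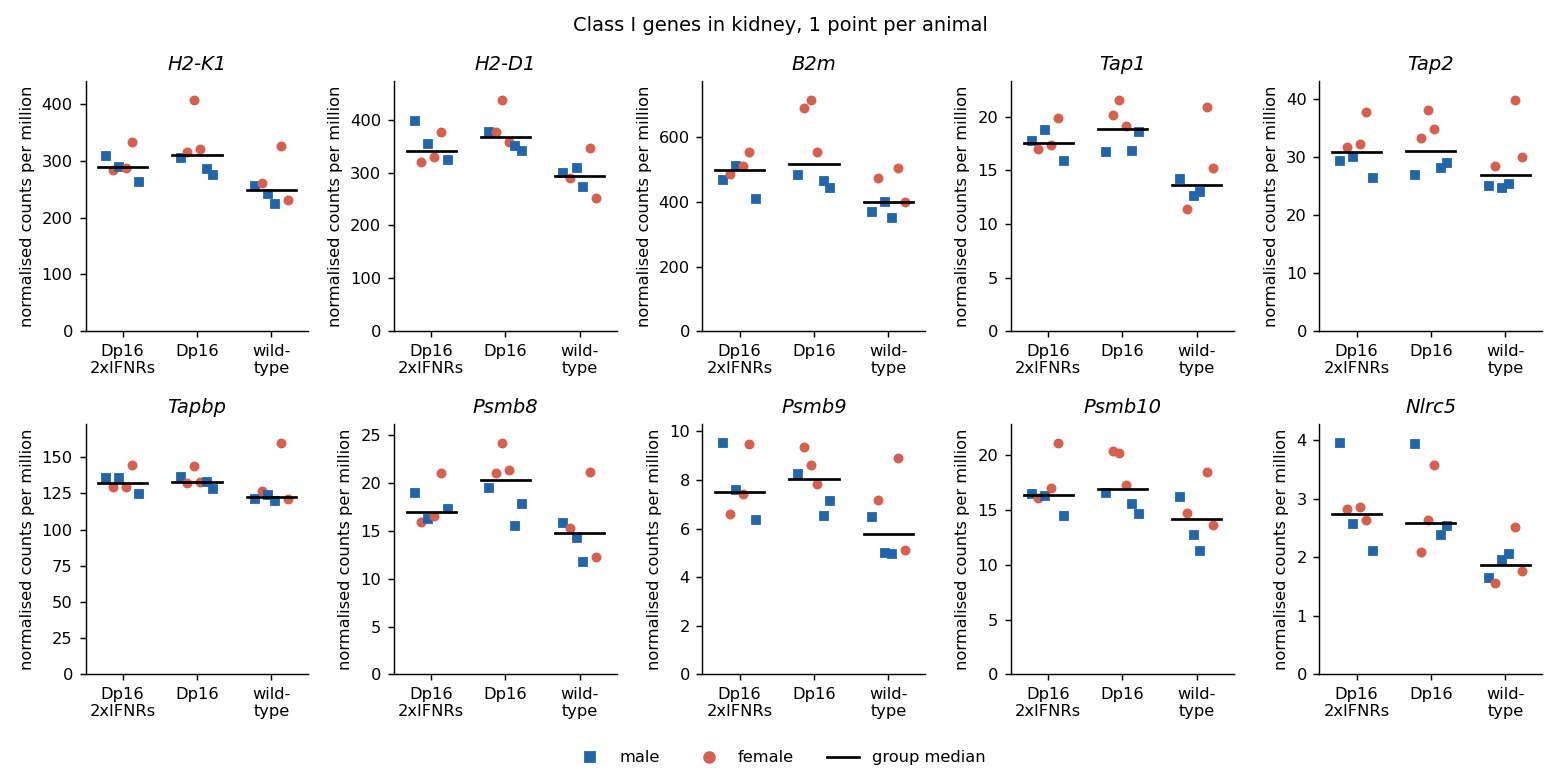
CPM of each of the 10 genes in every kidney, with 1 panel per gene, groups on the x axis, 1 point per animal, males and females distinguished, and a bar at the group median. H2-D1 shows 5 of 6 Dp16 kidneys above all wild-type kidneys, and the highest wild-type point in each panel is the same female, replicate 5.

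Genes of peptide transport and loading did not pass the test in either mutant group, Tap1 narrowly. Tap1, a pump subunit, had lowest, median and highest values of 15.9, 17.6 and 19.9 CPM in Dp16 2xIFNRs, 16.7, 18.9 and 21.6 CPM in Dp16 and 11.4, 13.6 and 20.9 CPM in wild-type kidneys. In both mutant groups every kidney was above 5 of the 6 wild-type kidneys, and the sixth, replicate 5, was above most of them. Its log2 fold was 0.37 ± 0.105 in Dp16 (adjusted p 0.0516) and 0.29 in Dp16 2xIFNRs (adjusted p 0.127), both against wild-type. The call of Tap1 in Dp16 depended on the method: 9 of 31 alternatives called it, among them DESeq2 (adjusted p 0.0199), limma-trend (0.0298), no filter on low counts (0.0348) and age as a covariate (0.0255). Without wild-type replicate 5 the Tap1 folds were 0.49 (adjusted p 0.00258) and 0.41 (adjusted p 0.00791).

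Tap2, the partner subunit, had 26.4, 30.9 and 37.7 CPM in Dp16 2xIFNRs, 26.9, 31.1 and 38.2 CPM in Dp16 and 24.7, 26.9 and 39.9 CPM in wild-type kidneys, as lowest, median and highest value. The highest kidney of all was wild-type replicate 5, and the groups overlapped throughout. Its log2 fold was 0.12 ± 0.076 in Dp16 2xIFNRs (adjusted p 0.443) and 0.13 ± 0.076 in Dp16 (adjusted p 0.399), both against wild-type. Tapbp, tapasin, had 125, 132 and 145 CPM in Dp16 2xIFNRs, 128, 133 and 144 CPM in Dp16 and 119.6, 123 and 159.9 CPM in wild-type kidneys. Its fold of 0.06 ± 0.063 in Dp16 against wild-type (adjusted p 0.69) was the smallest of the 10, as was its fold of 0.05 in Dp16 2xIFNRs (adjusted p 0.729), and again wild-type replicate 5 was the highest kidney of all. In GENCODE M21, Tap2 and Tapbp share 698 and 904 exon bases with genes of the opposite strand, and Tap1 shares 212 with Psmb9. Among the genes described below, Psmb8 shares 498 and Nlrc5 78 in the same way. How counting treated strand is not given in the sources used here, so counts of reads over these bases may be affected. Tapbp also shares 149 exon bases with Zbtb22 on its own strand.

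The 3 immunoproteasome subunits had folds above 0 in both mutant groups and none was called. Psmb8 had lowest, median and highest values of 15.9, 16.9 and 21.0 CPM in Dp16 2xIFNRs, 15.5, 20.2 and 24.2 CPM in Dp16 and 11.7, 14.8 and 21.1 CPM in wild-type kidneys. Psmb9 had 6.35, 7.50 and 9.54 CPM, 6.51, 8.04 and 9.34 CPM, and 4.97, 5.79 and 8.915 CPM in Dp16 2xIFNRs, Dp16 and wild-type kidneys. Psmb10 had 14.4, 16.4 and 21.1 CPM, 14.6, 16.9 and 20.4 CPM, and 11.3, 14.2 and 18.5 CPM in the same 3 groups. For each subunit the mutant medians were above the wild-type median, and the ranges overlapped. The log2 folds in Dp16 against wild-type were 0.40 ± 0.117 for Psmb8 (adjusted p 0.0601), 0.34 ± 0.14 for Psmb9 (adjusted p 0.19) and 0.26 ± 0.097 for Psmb10 (adjusted p 0.141). In Dp16 2xIFNRs against wild-type they were 0.23, 0.33 and 0.22, with adjusted p-values of 0.298, 0.204 and 0.227. Without wild-type replicate 5, Psmb8 was called in Dp16, with a fold of 0.50 and an adjusted p of 0.0109, and without Dp16 replicate 5 it was called as well, at 0.44 (adjusted p 0.046). In all, 8 of 31 alternatives called Psmb8 in Dp16, among them DESeq2 (adjusted p 0.0282), limma-trend (0.0433) and no filter on low counts (0.0349), and 1 called Psmb10.

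Nlrc5, the transactivator, had the largest fold of the 10 genes and the lowest level. It had 2.103, 2.73 and 3.95 CPM in Dp16 2xIFNRs, 2.09, 2.58 and 3.93 CPM in Dp16 and 1.55, 1.86 and 2.52 CPM in wild-type kidneys, as lowest, median and highest value. Of the mutants, 5 of 6 Dp16 2xIFNRs kidneys and 4 of 6 Dp16 kidneys were above every wild-type kidney. The log2 fold was 0.57 ± 0.182 in Dp16 (adjusted p 0.0814) and 0.56 ± 0.182 in Dp16 2xIFNRs (adjusted p 0.0888), neither called. Without wild-type replicate 5 both were called, at 0.68 (adjusted p 0.042) and 0.67 (adjusted p 0.0432), and DESeq2 with all kidneys also called both (adjusted p 0.0385 and 0.0477).

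**Figure D3:**
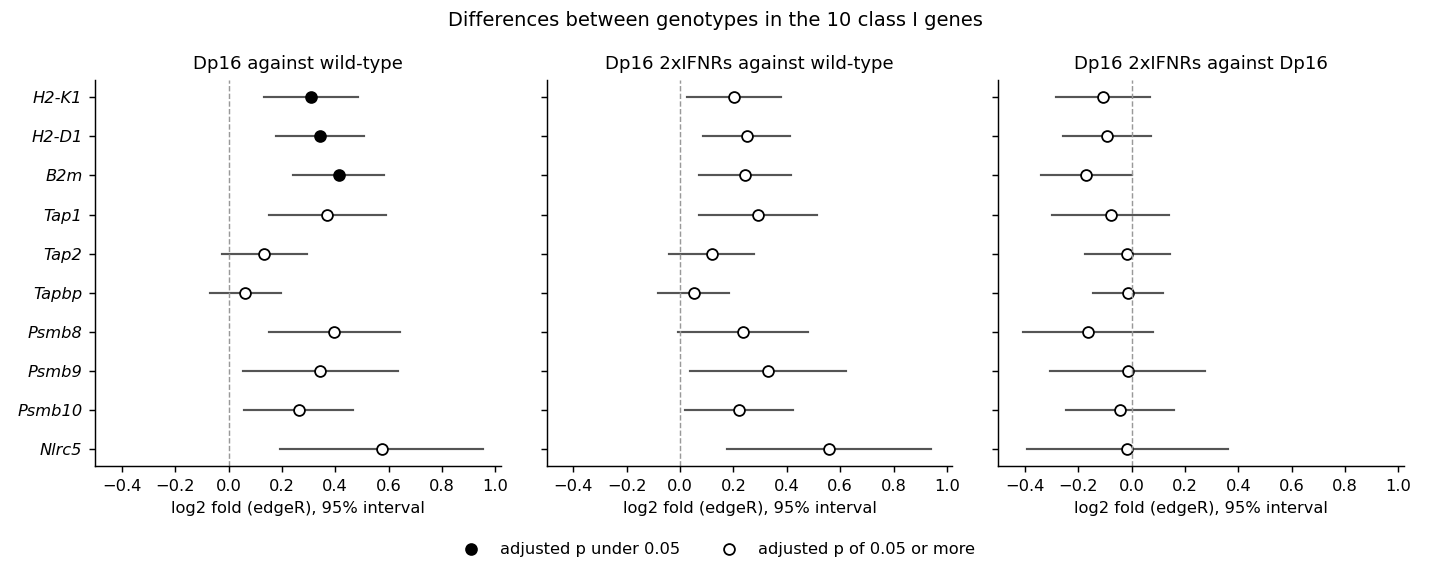
Log2 folds of the 10 genes from edgeR in each of the 3 genotype comparisons, with 95% intervals as lines and filled points for called genes. The called genes are H2-K1, H2-D1 and B2m in Dp16 against wild-type, and every interval for Dp16 2xIFNRs against Dp16 includes 0.

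Dp16 2xIFNRs and Dp16 kidneys, which differ in the copy number of the interferon receptor genes, were not told apart by any of the 10 genes. All 10 folds were below 0, with a median of -0.06 against 0.00 over all tested genes, and none was called by edgeR, DESeq2 or limma-trend or had an unadjusted edgeR p under 0.05. Over all genes 0% were called higher and 0.0171% lower. The 95% intervals were -0.28 to 0.07 for H2-K1, -0.26 to 0.07 for H2-D1, -0.30 to 0.14 for Tap1 and -0.39 to 0.36 for Nlrc5. They were narrowest for the loading genes, at -0.18 to 0.14 for Tap2 and -0.14 to 0.12 for Tapbp. For the immunoproteasome subunits they were -0.41 to 0.08 for Psmb8, -0.30 to 0.28 for Psmb9 and -0.24 to 0.16 for Psmb10. B2m came nearest to the threshold, with a fold of -0.17 and an unadjusted p of 0.0519. By sex, 5 of the 10 folds were below 0 in males alone and 9 in females alone, where B2m had a fold of -0.01 in males and -0.34 in females, none called. These intervals do not show that the 2 genotypes are alike. The receptor genes themselves differed: Ifnar2, Ifngr2 and Il10rb were lower in Dp16 2xIFNRs than in Dp16 by log2 folds of -0.60, -0.63 and -0.62, all called, and Ifnar1 by -0.42 (adjusted p 0.113).

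Markers of leukocytes, which are rich in class I, moved with genotype. The 3 leukocyte markers summed to 58.9, 63.2 and 74.6 CPM in Dp16 2xIFNRs, 57.9, 65.0 and 71.1 CPM in Dp16 and 37.3, 40.3 and 55.2 CPM in wild-type kidneys, as lowest, median and highest sum, and all 3 were called higher in both mutant groups. Of 10 macrophage and dendritic cell markers, 8 were called higher in Dp16 2xIFNRs and 6 in Dp16, and their sums did not overlap those of wild-type kidneys (207 to 279.6 CPM in Dp16 2xIFNRs, 223 to 261 in Dp16, 147 to 201 in wild-type). T and NK cell markers had 2 and 4 of 7 called, and B and plasma cell markers 0 and 1 of 5. Over all tested genes 3.17% were called higher in each mutant group. None of 6 endothelial, 6 proximal tubule and 2 loop of Henle markers was called. Of 4 distal and collecting duct markers 1, Calb1, was called higher in Dp16 2xIFNRs (0.40) and Dp16 (0.38). Of 3 podocyte markers 1 was called higher in each mutant group. The highest log2 fold of that list was 0.50 in Dp16 2xIFNRs and 0.47 in Dp16. In whole kidney RNA more cells of a type and more RNA per cell cannot be told apart, and the part of the leukocytes in the class I levels was not tested.

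The pathway genes varied together across animals. With the mean of each sex removed, Pearson's r over the 18 kidneys for the 45 pairs of the 10 genes was 0.463 to 0.974, with a median of 0.763, and highest for H2-K1 with H2-D1. With genotype means removed as well, the median was 0.696 and the range 0.037 to 0.956. With sex means alone removed, the genes whose pattern was most like the mean of the 10 were H2-Ab1, with r of 0.959, Bst2 (0.934), Cd74 (0.924), H2-Eb1 (0.923), H2-Aa (0.919) and C1qb (0.917). With genotype means also removed, the first 6 were H2-Ab1 (0.932), C1qb (0.904), Cd74 (0.885), H2-Q4 (0.885), Bst2 (0.877) and H2-Eb1 (0.875). H2-Ab1, Cd74, H2-Eb1 and H2-Aa encode MHC class II chains and their invariant chain. These correlations are descriptions over libraries that share their normalisation, and all include wild-type replicate 5.

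Immunoproteasome subunits take the place of constitutive ones, so the level of each was set against that of its counterpart, both per length. Constitutive subunits were far higher, with mean levels of 142 RPKM for Psmb5, 170.4 RPKM for Psmb6 and 88.4 RPKM for Psmb7. Psmb8 to Psmb5 was 0.0588, 0.0772 and 0.108 in Dp16 2xIFNRs, 0.0569, 0.0885 and 0.111 in Dp16 and 0.0483, 0.0593 and 0.120 in wild-type kidneys, as lowest, median and highest ratio. Psmb9 to Psmb6 was 0.0280, 0.0346 and 0.0431 in Dp16 2xIFNRs, 0.0276, 0.0361 and 0.0388 in Dp16 and 0.0193, 0.0230 and 0.0417 in wild-type kidneys. Every group median was higher in the mutants, and the highest wild-type ratio was that of replicate 5 and overlapped both mutant groups.

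Psmb10 to Psmb7 was 0.121, 0.146 and 0.200 in Dp16 2xIFNRs, 0.119, 0.148 and 0.190 in Dp16 and 0.0889, 0.126 and 0.190 in wild-type kidneys. In two-sided exact permutation tests of animals within sex, adjusted over the 9 tests of ratios and genotypes, none passed. The log2 differences in Dp16 against wild-type were 0.42, 0.41 and 0.26 for the ratios of Psmb8, Psmb9 and Psmb10, each with an adjusted p of 0.072. In Dp16 2xIFNRs against wild-type they were 0.29, 0.45 and 0.28, with adjusted p-values of 0.1275, 0.072 and 0.072. In Dp16 2xIFNRs against Dp16 they were -0.13, 0.03 and 0.02. Without wild-type replicate 5 all 6 differences from wild-type passed, at 0.60, 0.55 and 0.39 in Dp16 and 0.47, 0.59 and 0.40 in Dp16 2xIFNRs, each with an exact permutation p of 0.0075 after adjustment. That is the smallest adjusted p that these permutations can give. Replicate 5 had the highest wild-type ratio for each subunit, so its removal raises every difference by itself and is no separate support.

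**Figure D4:**
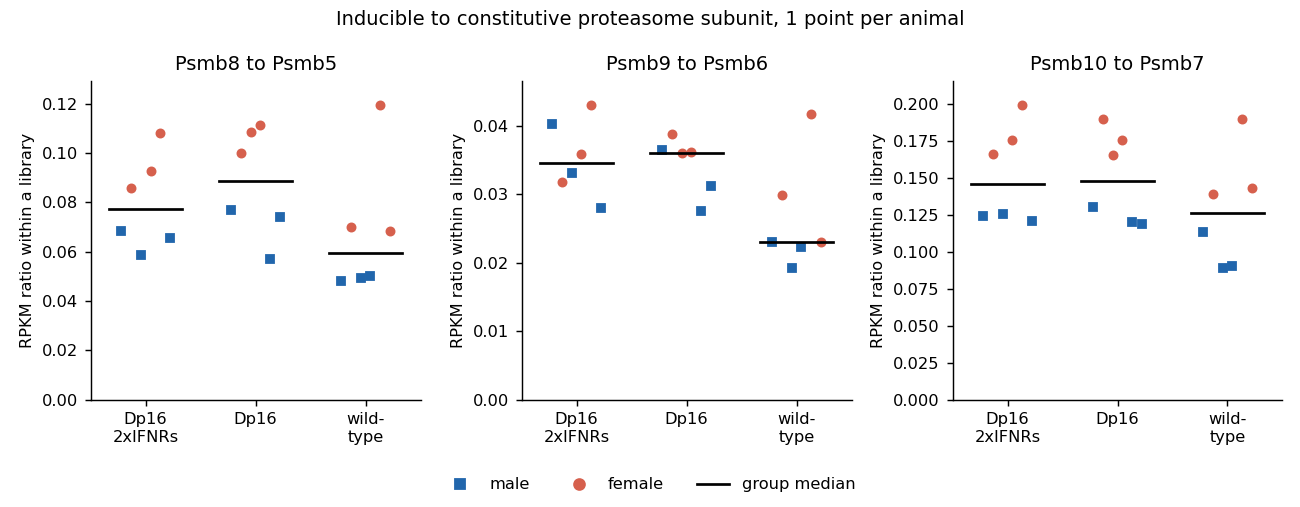
Ratios of immunoproteasome to constitutive subunit RPKM (Psmb8 to Psmb5, Psmb9 to Psmb6, Psmb10 to Psmb7) in every kidney, by genotype, with 1 point per animal, males and females distinguished, and a bar at the group median. Male kidneys stand below female kidneys for Psmb10 to Psmb7 with no overlap (0.0889 to 0.131 in males, 0.139 to 0.200 in females).

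Some of the 10 genes differed by sex. B2m, Tap2 and Psmb10 were lower in male than in female kidneys, the 3 of the 10 genes called, where 19% of all tested genes were called higher in males and 19.7% lower. The fold was below 0 for 9 of the 10 genes, with a median of -0.19 against -0.03 over all tested genes. B2m had lowest, median and highest values of 351, 442 and 511 CPM in male and 401, 513 and 717 CPM in female kidneys, with a log2 fold of -0.32 ± 0.067 (adjusted p 0.000726). Tap2 had 24.7, 26.9 and 30.0 CPM in male and 28.4, 33.3 and 39.9 CPM in female kidneys, with little overlap and a fold of -0.32 ± 0.062 (adjusted p 0.000317). Psmb10 had 11.3, 15.6 and 16.6 CPM in male and 13.6, 17.2 and 21.1 CPM in female kidneys, with a fold of -0.24 ± 0.079 (adjusted p 0.0203), a call that was lost without wild-type replicate 4 (adjusted p 0.0505). H2-K1 had a fold of -0.17 (adjusted p 0.0502) and was called in 5 of the 18 fits with 1 library left out. Psmb9, Psmb8, Tap1 and Tapbp had folds of -0.20, -0.19, -0.18 and -0.08, none called. H2-D1 and Nlrc5 had folds of -0.03 and 0.03.

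Most other proteasome genes were higher in males. Psmb5 and Psmb7, constitutive catalytic subunits, were higher in males by log2 folds of 0.47 (adjusted p 1.05e-05) and 0.34 (adjusted p 3.09e-05), and Psmb6 had a fold of 0.10 (adjusted p 0.128). Of the other 20S core subunits 10 of 11 were called higher in males, and of the 19S regulatory particle 16 of 18, with 1 lower, Psmd3. Among all tested genes 19% were called higher in males and 19.7% lower. The ratio of Psmb8 to Psmb5 was 0.0483, 0.0588 and 0.0770 in male and 0.0682, 0.09995 and 0.120 in female kidneys. The male-minus-female log2 differences of the 3 ratios were -0.65 for Psmb8, -0.29 for Psmb9 and -0.58 for Psmb10. Their two-sided exact permutation p-values were 0.00025, 0.01875 and 0.00025, of which 0.00025 is the smallest that the 8000 permutations within genotype can give, and adjusted over the 3 they were 0.000375, 0.01875 and 0.000375. The Psmb9 ratio no longer passed without Dp16 2xIFNRs replicate 5 or wild-type replicate 1, 3 or 4, with adjusted exact permutation p-values of 0.0585 to 0.0955. This comparison of ratios was added after the sex folds of single genes were seen.

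**Figure D5:**
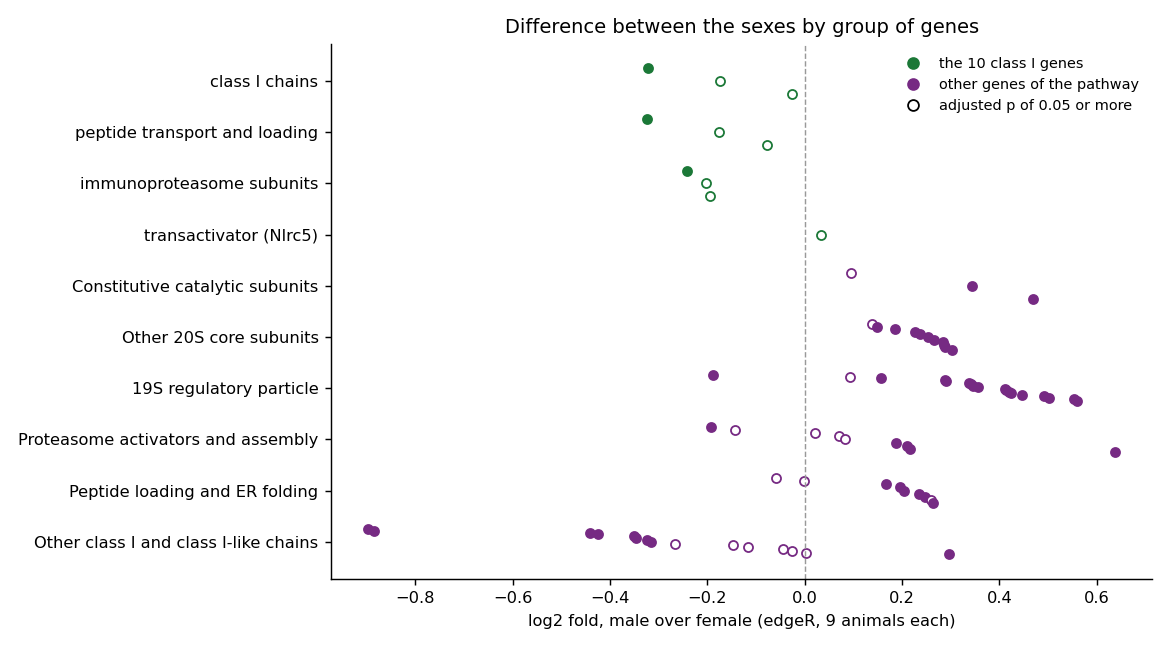
Log2 folds, male over female, from edgeR (9 animals each) on the x axis, with 1 point per gene, groups of genes down the page and filled points for called genes. The filled points of the 10 genes (B2m, Tap2, Psmb10) lie below 0, and those of the constitutive catalytic subunits (Psmb5, Psmb7) lie above it.

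Marker genes of other cells also differed by sex, where 19% of all tested genes were called higher in males and 19.7% lower. Of the endothelial markers 4 of 6 and of the podocyte markers 3 of 3 were called lower in males, as were 2 of 2 loop of Henle and 2 of 4 distal and collecting duct markers. Proximal tubule markers had 3 of 6 called higher and 2 lower. Of the T and NK cell markers 1 of 7, Cd4, was called lower (-0.82), and of 10 macrophage and dendritic cell and 5 B and plasma cell markers none was called. None of the 3 leukocyte markers was called, with sums of 37.3 to 74.4 CPM in male and 39.3 to 74.6 CPM in female kidneys. Their part in the sex difference was not tested. In a test of the interaction of sex and genotype, none of the 10 genes was called by edgeR or DESeq2 in Dp16 against wild-type, in Dp16 2xIFNRs against wild-type or in Dp16 2xIFNRs against Dp16, where 0.0171%, 0.00569% and 0% of all tested genes were called. The only unadjusted p under 0.05 in these 3 tests was that of B2m in Dp16 2xIFNRs against Dp16 (0.04), with an interaction of 0.34 and an adjusted p of 0.953. In males alone, all 10 folds in Dp16 against wild-type were above 0 (0.11 to 0.63), and in females alone 9 of 10 were, with 0.50 as the highest. None was called with 3 animals a group.

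Other class I genes gave a mixed picture. Of 17 listed chains 15 were tested, and H2-Q7, H2-T24 and H2-M2 were called higher in Dp16 against wild-type, with log2 folds of 0.43, 0.56 and 1.86, and none lower. H2-T24 and H2-M2 were also called in Dp16 2xIFNRs against wild-type, with folds of 0.66 and 2.35, and H2-Q7 was not (0.30, adjusted p 0.0612). Among all tested genes 3.17% were called higher in each mutant group against wild-type. The median fold of the list in Dp16 was 0.08, and 10 of 15 were above 0. Some chains of the Q and T families are near-identical in sequence, so reads may not be assigned cleanly to 1 chain. Male kidneys had 8 of the 15 called lower, among them H2-Q7 (-0.35) and H2-Q6 (-0.44), and 1 higher, H2-T22 (0.30). Among all tested genes 19.7% were called lower in males and 19% higher. H2-M3, which presents bacterial formyl peptides and also has the spaced pair in its window, had genotype folds of 0.25 in Dp16 2xIFNRs and 0.48 in Dp16, both against wild-type and not called.

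Steps on either side of the 10 genes had genotype calls that are read against those over all tested genes. Of all tested genes 3.17% were called higher in each mutant group against wild-type. Called lower were 1.61% in Dp16 2xIFNRs and 1.06% in Dp16. Between the mutant groups 0% were called higher and 0.0171% lower. At such shares, 0 calls in lists this short are no result by themselves. Of 9 genes of peptide loading and folding, 0 were called in either mutant group against wild-type. Erap1, the peptide trimmer, had a log2 fold of 0.06 in Dp16 2xIFNRs and -0.05 in Dp16. By sex, 6 of the 9 were called higher in males, among them Uggt1 (0.26), which checks the folding of glycoproteins. Among all tested genes 19% were called higher in males and 19.7% lower. The 3 constitutive catalytic, 11 other 20S and 18 19S subunits had 0 calls in all 3 genotype comparisons. Of 9 activator and assembly genes the only call against wild-type was Psmg1, a proteasome assembly chaperone gene on chromosome 16, at 0.46 in Dp16 2xIFNRs and 0.54 in Dp16. Psme1, an interferon-responsive activator subunit, had folds of 0.09 and 0.19, and its partner Psme2 had -0.14 and 0.01, neither called. Of 6 cytosolic peptidases, Lap3 was called in Dp16 2xIFNRs (0.23, adjusted p 0.0285), and in the comparison of the sexes it was higher in male than in female kidneys by a log2 fold of 1.22.

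Regulators and receptors were tested as well. None of 17 class I transcription factor genes was called in either mutant group against wild-type. The share of all tested genes called higher was 3.17% in each mutant group. The share called lower was 1.61% in Dp16 2xIFNRs and 1.06% in Dp16. Irf1, which drives class I genes, had log2 folds of 0.12 in Dp16 2xIFNRs and 0.15 in Dp16, and Rfx5, a subunit of the complex that binds SXY modules, had -0.03 and -0.33 (adjusted p 0.0987 in Dp16). Ciita, the class II transactivator, had 0.36 and -0.02. The interferon receptor genes had 1 of 5 called higher in Dp16 2xIFNRs and 4 in Dp16, where Ifnar2 had 0.80, Ifngr2 0.76, Il10rb 0.60 and Ifnar1 0.58. Of 11 listed receptors for class I on lymphocytes and myeloid cells only 5 were tested. Klra2 was called higher in both mutant groups, at 0.90 in Dp16 2xIFNRs and 0.93 in Dp16, and Pirb in Dp16 2xIFNRs (0.75), whereas Cd8a, a coreceptor for class I on T cells, had 0.47 and 0.91 and was not called.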

How the data were processed

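PolyA RNA of 18 kidneys was sequenced as paired reads from strand-specific libraries, per the labels' protocols. Build GRCm38 and the tools HISAT2 2.1.0, HTSeq 0.6.1, SAMtools 1.5, FastQC 0.11.5 and bcl2fastq are named by the submitters' processing notes. The authors deposited raw counts per gene and RPKM values. Both are labelled with a later GENCODE release than the M21 used here for gene positions, exon overlaps and shared transcript stretches. The length implied by count and RPKM was the same in every library within 0.1% for 12540 of 12540 genes with 50 counts or more everywhere. Genes were tested by edgeR 4.0.16 (R 4.3.3; quasi-likelihood, TMM, genotype and sex as terms), after filterByExpr (count minimum 10, total minimum 15) had removed 37810 genes. SEs are the fold divided by the square root of F and are approximate. The biological coefficient of variation was 16.8%. Alternatives used DESeq2 1.42.0 and limma 3.58.1. The steps were tested on simulated counts with no sex difference and with folds larger than those called among the 10 genes. That test therefore does not cover folds as small as these. The 10 genes and all lists were chosen with earlier results of these data known. Named genes were the 10, a fixed set of counterparts and regulators (Psmb5 to Psmb7, Psme1, Psme2, Irf1, Rfx5, Ciita), up to 4 genes of smallest unadjusted p per pathway list, and the 6 genes of most similar pattern. H2-Q6, H2-T22 and Psmd3 were named after their values were seen. Not every gene selected in this way is given here. CPM used TMM library sizes, and list sums are sums of CPM.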

Additional observations from a re-analysis of the deposited data

Results flagged for a closer look

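In 6 of 39 sets of 6 kidneys tested, the highest kidney stood far from the next. Chance picks out about 1 in 20 independent sets, but these sets use the same 18 kidneys over genes that vary together, and all 6 came from 2 kidneys, so the count is not set against chance. Dp16 replicate 3 was 2 of them, with 408 CPM for H2-K1 (next highest 320.4) and 438 CPM for H2-D1 (next highest 377). Wild-type replicate 5 was the other 4, with 326 CPM for H2-K1 (next highest 261), 39.9 CPM for Tap2 (30.1), 159.9 CPM for Tapbp (126) and a ratio of Psmb8 to Psmb5 of 0.120 (0.0700). Wild-type replicate 5 also had the raised adrenal and leukocyte marker sums given above, and their part in these values was not tested.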

How the results depend on the processing

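Alternatives changed counts more than directions, and no called value changed sign. Genes called in Dp16 against wild-type were 744, against 190 with no sex term, 1236 with DESeq2, 453 in a fit of the 2 groups, 318 in males, 33 in females and 429 to 815 with each library left out. In Dp16 2xIFNRs against wild-type they were 841, against 234, 1287, 343 in males, 14 in females and 526 to 920 with each library left out; in Dp16 2xIFNRs against Dp16 they were 3, against 1 in males and 0 in females. Of the 10 pathway genes, the 3 called in Dp16 became 5 with no filter, 0 with no sex term, 6 with DESeq2, 5 with limma-trend on RPKM, 5 with the description number as a random block, 0 in males or females alone, 5 without wild-type 5 and Dp16 3 together (chosen after seeing the data) and 1 to 6 with each library left out. The 0 called in Dp16 2xIFNRs became 1 with DESeq2, 1 with limma-trend, 3 without those 2 kidneys and 0 to 3 with each library left out. The 3 lower in males were 2 to 5 with each library left out. Interaction calls in Dp16 against wild-type were 3, against 55 with no filter, 32 with DESeq2 and 2 to 14 with each library left out; in Dp16 2xIFNRs against wild-type 1, against 61, 23, 5 at an average log2 CPM of 1 or more and 0 to 9; in Dp16 2xIFNRs against Dp16 0, against 12 with no filter and 1 with DESeq2. With each library left out, log2 ratios against wild-type ranged from 0.34 to 0.60 (Psmb8), 0.33 to 0.55 (Psmb9) and 0.17 to 0.39 (Psmb10) in Dp16, and from 0.19 to 0.47, 0.37 to 0.59 and 0.19 to 0.40 in Dp16 2xIFNRs; the Psmb9 ratio in males against females ranged from -0.37 to -0.22, with adjusted p up to 0.0955 (wild-type 3 out). A cause was not tested.

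Samples of different groups share replicate numbers, and the main fit did not pair them. Of 18 same-numbered pairs, 7 correlated above 0.1 (-0.165 to 0.202). Pairs with unlike numbers were not set beside them, so these values do not decide whether the numbers pair animals. With the number as a replicate block, 6 pathway genes were called in Dp16 against wild-type, 2 in Dp16 2xIFNRs against wild-type and 5 lower in males, interaction calls were 0 in Dp16 and 2 in Dp16 2xIFNRs, both against wild-type, and all genes called were 910 in Dp16 and 945 in Dp16 2xIFNRs.

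Of 31 alternatives for Dp16 against wild-type, B2m was called in 28, H2-D1 in 26 and H2-K1 in 16. H2-K1 was lost with RLE size factors (adjusted p 0.0507) and in the fit of the 2 groups (0.0862).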
